A study of Rattus norvegicus with 4 samples.

Results

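The 39 genes described here encode complement and coagulation factors and were followed in single-cell RNA profiles of rat liver. The genes were chosen by symbol, and 39 of 39 were found among the 22118 symbols (22250 features) of the deposited matrices. Cfb has 2 features, of which the second holds 0 UMIs in every library. For 34 of the genes the hepatocyte is the well-known source, and these are called the hepatocyte members below. The other 5 are C1qa, C1qb, C1qc, Cfd and F8.

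Livers came from Lewis rats, with 1 library of unique molecular identifier (UMI) counts for each of 4 conditions. The naive liver was untreated, the CS liver was held at 4 °C for 4 h, and the NEVLP2 liver was perfused at 37 °C for 4 h. The NEVLPcty liver was perfused in like manner with the cytokines IL-10 and TGF-β in the fluid. The study addressed T cells that reside in the liver. What CS and the added cytokines stand for was read from the series description, and the digit in NEVLP2 is not explained there. Both perfused livers received a circuit fluid of William's E medium with human albumin, heparin, papaverine, insulin, hydrocortisone, penicillin/streptomycin and Lewis red cells depleted of leukocytes. The age of the animals and the way cells were isolated are not given in the sources used here. With 1 library per condition there is no test, and treatment, animal and cell preparation cannot be told apart as sources of any difference. The contrasts below also share libraries, so they are not independent of each other.

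Complement is a set of plasma proteins that mark and puncture microbes. It starts through antibody-bound C1, through mannose-binding lectins or through the alternative pathway, all of which meet at C3 and can go on to the terminal pore of C5 to C9. Coagulation factors are mostly serine proteases that act in sequence until prothrombin becomes thrombin, and serpins, protein C and protein S hold them in check. The liver makes most of both systems: hepatocytes secrete the bulk of the proteases and inhibitors, Kupffer cells and other macrophages make C1q, and sinusoidal endothelium is the main source of factor VIII.

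The 4 libraries held 3920 (naive), 11200 (CS), 10646 (NEVLP2) and 11763 (NEVLPcty) barcodes with 25609611, 67431270, 65893218 and 72271060 UMIs, and any pair of libraries shared 11 to 35 barcode sequences. After filtering, 3197, 9830, 9318 and 10523 cells remained in 43 clusters, which were made without the 39 genes and without other complement and coagulation genes. Clusters named from marker genes carry the ending "-like". Hepatocyte-like cells numbered 1049, 947, 1148 and 985 in that order of libraries, Kupffer-like cells 93, 708, 371 and 185, and endothelial-like cells 30, 4693, 293 and 836. Cells in unnamed clusters made up 15.9, 15.8, 58.9 and 67.2%. Because many of those were led by endothelial genes, the endothelial-led set below joins the named clusters 1, 8, 10 and 25 with the unnamed clusters 0, 5, 7 and 34 and holds 69, 4773, 2524 and 6375 cells. Cluster 34 was led by stellate genes as well. Clusters 0 and 7 each had 1 stellate marker among their 10 top genes, Reln in cluster 0 and Lrat in cluster 7. Unnamed clusters 2 and 3 were shallow and led by hepatocyte genes, and they are not among the hepatocyte-like cells. Cluster 2 held 2335 NEVLP2 and 335 NEVLPcty cells, and cluster 3 held 445 naive and 1340 CS cells.

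Levels are counts summed over the cells of a class and divided by the class total in that library, in CPM (counts per 1000000). Intervals are exact 95% limits and cover counting error only. Each run of 4 values follows the order naive, CS, NEVLP2, NEVLPcty.

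Most of the genes had 1 leading cell class. Over classes with at least 50 cells in a library, 25 of the 39 genes had their highest level in every library in hepatocyte-like cells, and 7 had it in Kupffer-like cells: C1qa, C1qb, C1qc, Cfd, C6, C2 and Cfb. The leading class differed between libraries for the other 7, which are C1r, C1s, Masp1, F5, F8, Serping1 and Pros1. Without that minimum of cells, 23 were led by hepatocyte-like, 6 by Kupffer-like and 1, F8, by endothelial-like cells in every library. F8 had 289 CPM in the 30 naive endothelial-like cells, which also held more C1r (371 CPM), Pros1 (271 CPM) and, from 6 counts, Cfb (35.4 CPM) than any other naive class. C5 was higher in cholangiocyte-like than in hepatocyte-like cells, at 121 CPM in CS and 128 CPM in NEVLPcty, and so was C3 in NEVLPcty, at 318 CPM. These values rest on 6 CS and 13 NEVLPcty cells, with 10, 25 and 62 counts. For Cfb, the protease of the alternative C3 convertase, the lead was small. Cfb stood at 21.9 CPM in naive Kupffer-like cells against 20.9 CPM in naive hepatocyte-like cells, and at 14.5 CPM in CS Kupffer-like cells against 12.3 CPM in CS endothelial-like cells. The hepatocyte markers, summed, reached 2.12, 2.12, 2.74 and 2.57% of their hepatocyte-like level in Kupffer-like cells and 0.474, 0.326, 1.02 and 0.490% in T-like cells. Hepatocyte transcripts were thus counted in both classes, and a member at a similar small percentage of its hepatocyte-like level is not shown to be made there.

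**Figure D1:**
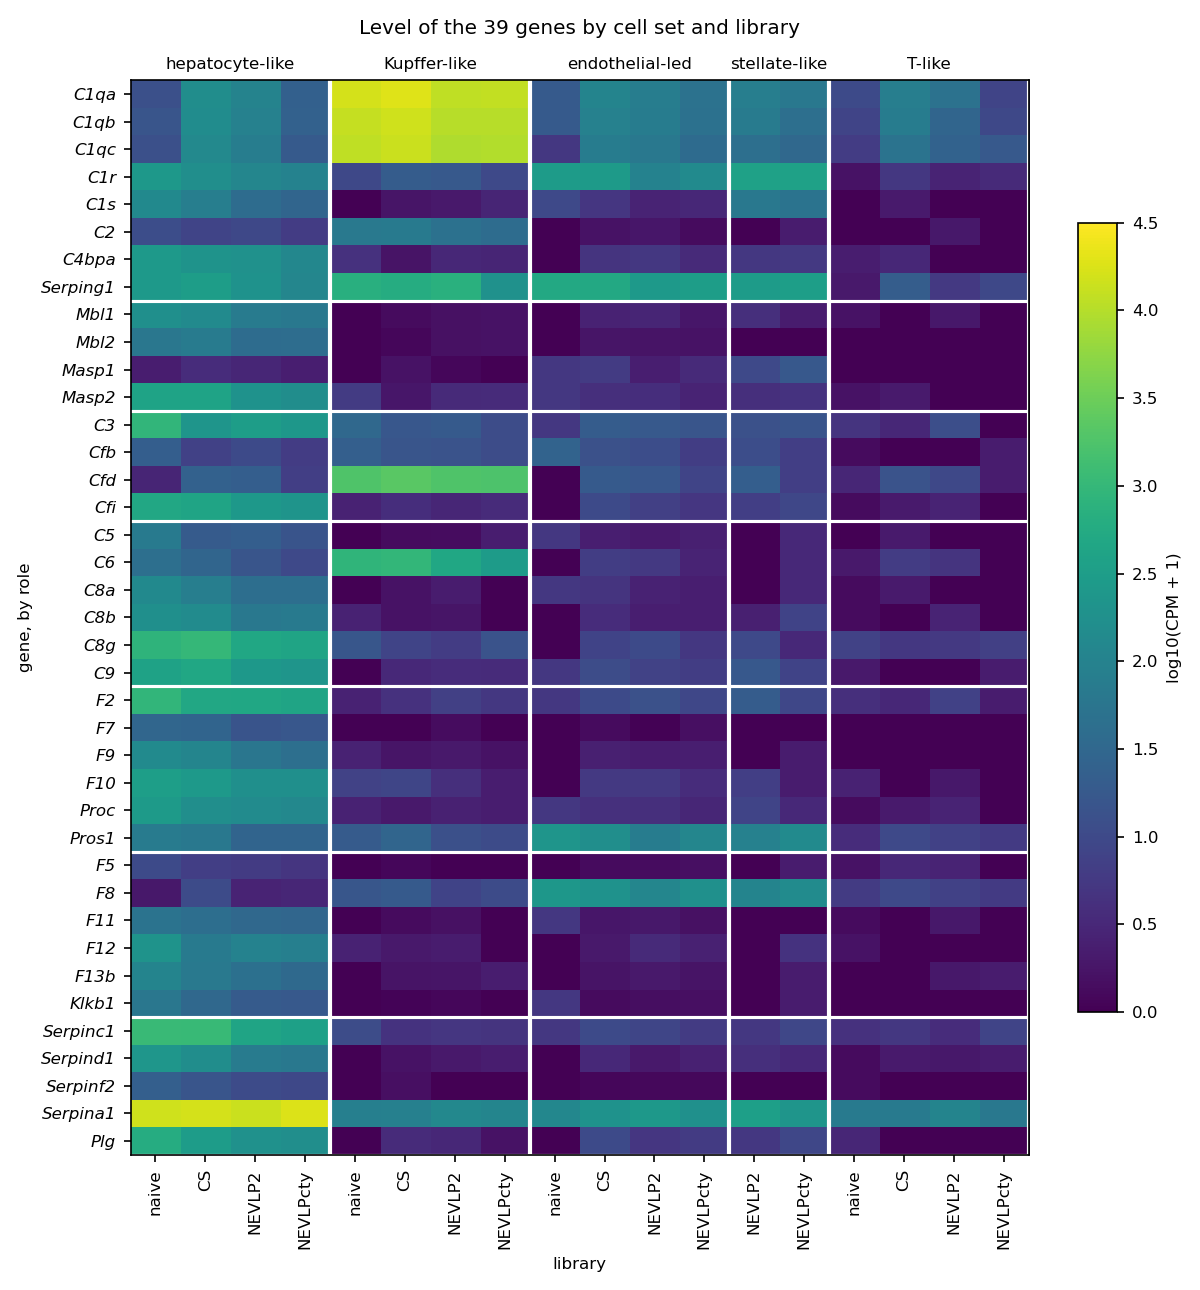
Level of each of the 39 genes, as log10(CPM + 1), by cell set and library, with genes grouped by role and no replicates. Most genes are bright in hepatocyte-like columns, C1qa, C1qb, C1qc and Cfd are bright in Kupffer-like columns, and F8 is bright in endothelial-led columns.

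In hepatocyte-like cells most hepatocyte members were highest in the naive library and lowest in the perfused ones. Of the 33 with at least 50 counts, 28 were highest in naive, 4 in CS and 1 in NEVLPcty, and 26 were lowest in NEVLPcty, 5 in NEVLP2 and 2 in CS. The highest and lowest library differed at least 2-fold for 28 of them. These counts have no share of all genes beside them, so they do not set the members apart from other genes. Between NEVLP2 and naive, 0 of the 34 hepatocyte members were at least 2-fold higher and 20 were at least 2-fold lower, where 38.6% and 7.51% of all genes measured passed the same limits. Their median log2 ratio was -1.10, beside 0.66 over all genes and -0.94 over other plasma proteins of hepatocytes. Relative to the median of all genes, 32 of the members were at least 2-fold lower. The shares of all genes in this paragraph are for ratios before such centring, so the centred counts have no share beside them. Between CS and naive, 1 was higher and 5 were lower (18.5% and 6.03% of all genes), with a median of -0.47 beside 0.26 over all genes and 0.06 over the other plasma proteins. Relative to that median of all genes, 0 were higher and 8 lower. Between NEVLP2 and CS, 0 were higher and 8 lower (26.9% and 11.6% of all genes). The median there was -0.70, beside 0.38 over all genes and -0.62 over the other plasma proteins, and 19 were lower relative to the median of all genes. Between NEVLPcty and NEVLP2, 0 were higher and 0 lower (7.88% and 7.63% of all genes), at a median of -0.23 beside 0.06 and -0.09.

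These class values rest on different cells in each library. They also leave out the unnamed clusters led by hepatocyte genes. With those added, 10 members were at least 2-fold lower between CS and naive, 18 between NEVLP2 and naive and 0 between NEVLP2 and CS. Cluster 23 held 333 of the naive cells and 58.5% of the naive class UMIs but 33 CS cells. Cluster 6 held 915 NEVLP2 cells with 86.2% of the class UMIs and 780 NEVLPcty cells. Cluster 4 occurred in every library, with 716, 910, 224 and 201 cells. The median percentage of mitochondrial UMIs in the class was also unequal, at 4.39, 0.982, 0.863 and 0.0622%, and so was the median depth, at 2017, 1867, 2565.5 and 2524 UMIs per cell. In naive, 31 of 33 members were higher in cluster 23 than in cluster 4, with a median ratio of 2.22. In NEVLP2, 30 of 33 were higher in cluster 4 than in cluster 6, with a median ratio of 2.31. These comparisons between clusters have no share of all genes beside them. Median depth was 4197 UMIs in naive cluster 23 and 1541 UMIs in naive cluster 4. In NEVLP2 it was 1212 UMIs in cluster 4 and 2841 UMIs in cluster 6.

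Within cluster 4, the hepatocyte members were not lower in NEVLP2 than in naive on the whole. There 25 of 33 were higher, 6 of them at least 2-fold, and 2 were at least 2-fold lower (23.3% and 9.79% of all genes), with a median log2 ratio of 0.41 beside 0.17 over all genes and 0.50 over the other plasma proteins. The 6 were F5 (3.60-fold), C9 (2.18-fold), Serping1 (2.17-fold), F13b (2.13-fold), C1r (2.103-fold) and Mbl2 (2.08-fold), and the 2 lower ones were C2 and Serpinf2. F5, C2 and Serpinf2 had only 75, 99 and 166 counts over all hepatocyte-like cells of the 4 libraries. Their cluster 4 ratios thus rest on few counts. In the same cluster 0 hepatocyte members were higher in CS than in naive and 2 lower (22.4% and 5.11% of all genes), C3 and Cfb. C5, F12 and Plg, at least 2-fold lower in CS over the whole class, were not called lower there. Between NEVLP2 and CS 6 were higher and 1 lower (14.1% and 13.7%), and between NEVLPcty and NEVLP2 0 were higher and 1, F11, was lower (5.76% and 12.3%). In cluster 6, 0 of 34 were higher and 0 lower between NEVLPcty and NEVLP2 (8.71% and 7.16%). The restriction to cluster 4 was chosen after seeing the data. Of the 20 members at least 2-fold lower in the whole class, 14 had a ratio above 1 in cluster 4. Genes of other plasma proteins, such as Alb, were not left out of the clustering. Alb had 27991 CPM in naive cluster 4, 40885 CPM in NEVLP2 cluster 4 and 18092 CPM in NEVLP2 cluster 6. Membership of cluster 4 may thus depend on genes that vary with the members, so its values cannot decide the direction over the class. Every NEVLP2 against naive and CS against naive value in the next paragraphs is to be read with the cluster 4 values and this limit in view.

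**Figure D2:**
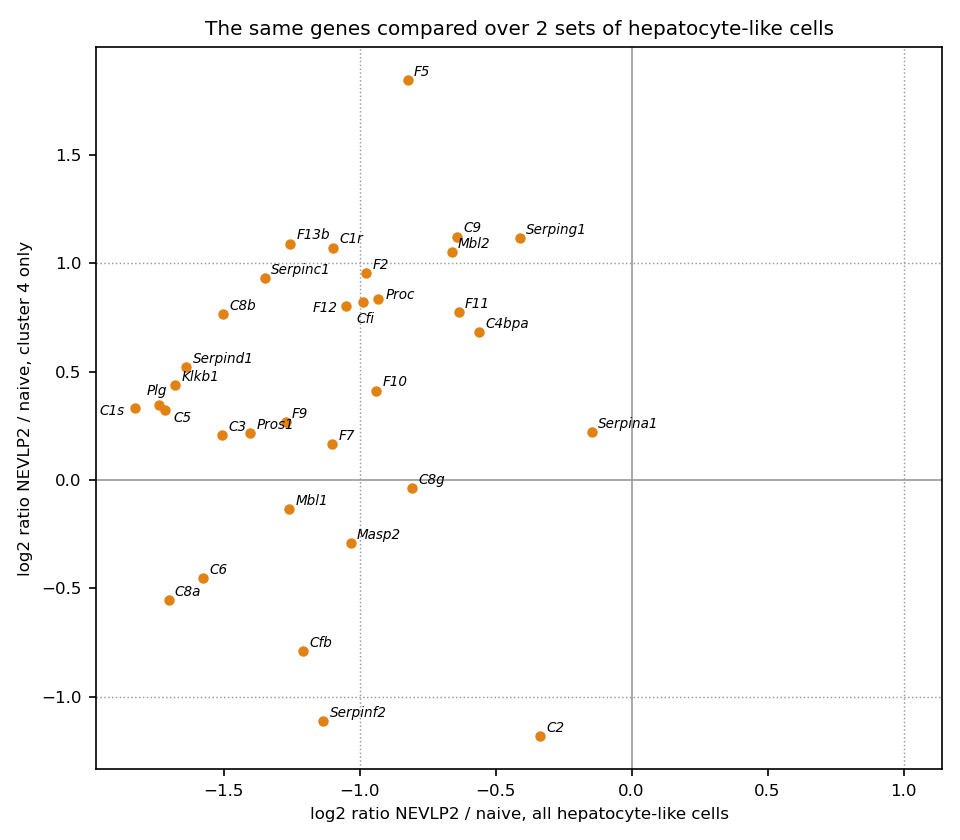
Log2 ratio of NEVLP2 to naive for the hepatocyte members with at least 50 counts, over all hepatocyte-like cells (horizontal axis) and over cluster 4 alone (vertical axis); each point is 1 gene, and dotted lines mark 2-fold. Points to the left of 0 and above 0, such as C3 and Serpinc1, have opposite directions in the 2 sets of cells.

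C3, the protein on which all complement pathways meet, had 911, 225, 321 and 242 CPM in hepatocyte-like cells. The naive library was far above the other libraries, with CS 4.05-fold lower than naive (interval 3.68 to 4.47) and NEVLP2 2.84-fold lower (2.66 to 3.04). The CS difference remained at least 2-fold under 14 of 14 alternatives. Within cluster 4 C3 had 358, 162, 414 and 322 CPM, so CS was again lowest, 2.21-fold below naive, while NEVLP2 was not below naive. Cluster 23 held 1303 CPM of C3 in naive, and cluster 6 held 204 and 231 CPM in NEVLP2 and NEVLPcty. Cfb, which joins C3 in the convertase, had 20.9, 6.397, 9.06 and 5.40 CPM and was 3.27-fold lower in CS than in naive. Cfi, the protease that inactivates C3b, had 502, 416, 253 and 209 CPM. A further source of C3 was the monocyte or macrophage class, in which cluster 19 held 263 CPM in naive and 235 CPM in CS. In NEVLP2 the class next to hepatocyte-like cells was the neutrophil-like one, with 167 CPM of C3. Of the naive C3 counts, 63.7% lay in hepatocyte-like and 25.4% in the monocyte or macrophage class.

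The terminal pathway genes encode C5, whose cleavage starts pore assembly, and the pore proteins. C5 had 69.7, 18.7, 21.2 and 13.7 CPM, so that CS and both perfused libraries lay below naive. It was 3.72-fold lower in CS than in naive and 3.28-fold lower in NEVLP2 (2.53 to 4.29). The CS difference was not called in cluster 4 alone or without cluster 23. C8a and C8b encode chains of C8. C8a had 133, 84.1, 40.9 and 42.1 CPM, and C8b had 175, 150, 61.6 and 67.4 CPM. Both were lowest in the perfused libraries, 3.25-fold (2.70 to 3.94) and 2.83-fold (2.43 to 3.32) below naive in NEVLP2. The third chain gene, C8g, had 848, 1007, 485 and 422 CPM, and C9, the gene of the pore-lining protein, 395, 473, 254 and 222 CPM. Both were highest in CS, which C8a, C8b and C5 were not. Of the 6 terminal genes, 4 were at least 2-fold lower in NEVLP2 than in naive, at a median log2 ratio of -1.54 (7.51% of all genes were lower).

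C8a and C8b are neighbours in the RefSeq annotation of GRCr8, where 7 pairs of the 39 genes are adjacent among protein-coding genes. The others are C1r and C1s, C1qb and C1qc, C1qc and C1qa, C2 and Cfb, F7 and F10, and F11 and Klkb1. Promoters are shown here for 4 hepatocyte members at least 2-fold apart between libraries. Each covers the 250 bases before the RefSeq start on GRCr8, on the gene's strand. They are C8a at chr5:124866632-124866881 (minus strand), C8b at chr5:124763864-124764113 (plus strand), C3 at chr9:2201340-2201589 (minus strand) and Serpinc1 at chr13:75790308-75790557 (plus strand). Capitals mark matches on either strand to the searched motifs TTGCNNAA (C/EBP type), GTTAAT (HNF1 type), GAGGAA (PU.1 type) and TTCNNNGAA (STAT type).
C8a: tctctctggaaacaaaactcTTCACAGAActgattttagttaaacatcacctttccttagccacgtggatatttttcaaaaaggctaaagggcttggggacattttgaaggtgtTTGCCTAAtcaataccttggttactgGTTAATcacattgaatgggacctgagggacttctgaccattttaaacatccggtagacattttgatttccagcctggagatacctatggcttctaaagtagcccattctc
C8b: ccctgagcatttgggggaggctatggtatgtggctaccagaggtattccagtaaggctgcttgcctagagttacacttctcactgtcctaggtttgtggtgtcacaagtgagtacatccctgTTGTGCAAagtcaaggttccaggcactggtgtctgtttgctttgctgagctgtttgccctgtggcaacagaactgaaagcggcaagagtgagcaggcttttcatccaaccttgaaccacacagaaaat
C3: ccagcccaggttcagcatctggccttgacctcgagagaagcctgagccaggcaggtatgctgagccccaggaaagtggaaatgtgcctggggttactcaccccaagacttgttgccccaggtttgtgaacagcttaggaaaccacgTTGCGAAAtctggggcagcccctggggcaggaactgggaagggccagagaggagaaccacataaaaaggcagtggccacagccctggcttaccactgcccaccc
Serpinc1: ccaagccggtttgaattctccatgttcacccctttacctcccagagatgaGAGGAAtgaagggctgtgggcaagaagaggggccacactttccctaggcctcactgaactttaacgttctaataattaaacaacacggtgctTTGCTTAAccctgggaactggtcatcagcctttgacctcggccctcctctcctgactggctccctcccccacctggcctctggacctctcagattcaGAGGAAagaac

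A C/EBP-type match stood at -136 in C8a, -128 in C8b, -104 in C3 and -108 in Serpinc1, counted from the start site. The 4 genes shown all have this match but are not those that differ most between libraries. C5 (5.10-fold from highest to lowest library) and Plg (3.78-fold) differ more than C8b (2.83-fold) and lack the match. C6 (4.90-fold) and Klkb1 (3.49-fold) also differ more than C8b and have it. TTGCNNAA was present in 9 of the 26 hepatocyte members with a promoter sequence (34.6%) and in 9.20% of all 27457 promoters. GTTAAT was present in 7 of 26 (26.9%) and in 6.46% of all promoters, C8a among the 7, and GAGGAA was in 6 of 26 and in 23.2% of all. TTCNNNGAA was in 3 of 26 and in 7.52% of all, and TATAAA in 0 of 26 and in 13.1% of all. These are letter matches and not binding sites, and the absence of a match says nothing about a factor.

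Of the classical pathway genes other than C1q, only C4bpa was led by hepatocyte-like cells in every library. C1r and C1s encode the proteases of the C1 complex. C1r had 250, 164, 117 and 99.6 CPM in hepatocyte-like cells and was 2.14-fold lower in NEVLP2 than in naive (1.90 to 2.41). C1s had 133, 82.7, 37.5 and 28.4 CPM and was 3.55-fold lower (2.93 to 4.32), which is the largest such ratio among the 20. C4bpa, part of the C4b-binding inhibitor, had 272, 203, 185 and 118 CPM, and Serping1, the C1 inhibitor, 260, 315, 196 and 116 CPM. Among lectin pathway genes Mbl1 had 176, 144, 73.5 and 61.4 CPM and Mbl2 had 60.2, 74.9, 38.1 and 40.1 CPM, both encoding mannose-binding lectins. The protease gene Masp2 had 405, 402, 198 and 158 CPM, so naive and CS lay together and the perfused pair lower. Masp1 was scarce in hepatocyte-like cells, with 23 counts in all. Its 2.095-fold higher CS level rests on 6 counts against 4 (interval 0.497 to 10.1) and was the 1 higher call between CS and naive.

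The vitamin K-dependent genes encode proteins that bind calcium and membranes through carboxylated residues. F2, prothrombin, had 923, 508, 469 and 431 CPM in hepatocyte-like cells. F7, the partner of tissue factor, had 29.4, 27.0, 13.7 and 15.9 CPM, F9 had 141, 112, 58.3 and 43.2 CPM, and F10 had 334, 276, 175 and 172 CPM. Proc, protein C, had 280, 167, 147 and 125 CPM, and Pros1, its cofactor protein S, had 73.3, 63.5, 27.7 and 27.6 CPM. All 6 were highest in naive, and 3 of them, F7, F9 and Pros1, were at least 2-fold lower in NEVLP2 than in naive (7.51% of all genes). F2 differed widely among the clusters, with 1262 CPM in naive cluster 23, 346 CPM in NEVLP2 cluster 6, and 444, 429, 861 and 964 CPM in cluster 4.

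Among the contact and other coagulation genes, F12, which starts the contact pathway, had 203, 70.4, 98.4 and 87.0 CPM and was lowest in CS, 2.89-fold below naive. That CS difference was not called in cluster 4 alone or without cluster 23. F11 had 50.7, 40.7, 32.6 and 29.0 CPM, and Klkb1, prekallikrein, had 60.5, 32.4, 18.9 and 17.4 CPM. F13b, the carrier subunit of the factor that cross-links fibrin, had 107, 65.8, 44.8 and 34.1 CPM. Both Klkb1 and F13b were at least 2-fold lower in NEVLP2 than in naive, by 3.20-fold and 2.39-fold. F5, the cofactor of factor Xa, had only 9.16, 5.94, 5.18 and 3.98 CPM in hepatocyte-like cells. Its level was higher in neutrophil-like cells, at 106 CPM in naive and 32.7 CPM in NEVLP2. Cholangiocyte-like cells had 121 CPM of F5 in CS and 97.3 CPM in NEVLPcty, from 10 counts in 6 cells and 19 counts in 13 cells.

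Plasma inhibitors and plasminogen made up a group with 4 of 5 genes at least 2-fold lower in NEVLP2 than in naive, at a median log2 ratio of -1.35 (7.51% of all genes were lower). Scaled to other plasma proteins of hepatocytes, 0 of all 34 hepatocyte members were at least 2-fold lower in this contrast. Serpinc1, antithrombin, had 1101, 1069, 432 and 357 CPM, so that naive and CS lay close together above the perfused libraries, and NEVLP2 was 2.55-fold lower than naive (2.40 to 2.70). Within cluster 4 the order was different, with 642, 1013, 1224 and 1102 CPM, and cluster 6 held 275 and 265 CPM. Plg, plasminogen, had 621, 310, 186 and 164 CPM and was 3.34-fold lower in NEVLP2 (3.06 to 3.64). Serpind1, heparin cofactor II, had 230, 158, 74.1 and 63.2 CPM, and Serpinf2, the plasmin inhibitor, 21.6, 14.6, 9.84 and 8.53 CPM. Serpina1, the elastase inhibitor, had 14977, 16487, 13532 and 17984 CPM. It was the exception of the group and the 1 hepatocyte member highest in NEVLPcty, and it differed little among clusters, with 15224 CPM in naive cluster 23 and 13072 and 18107 CPM in cluster 6 of NEVLP2 and NEVLPcty.

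**Figure D3:**
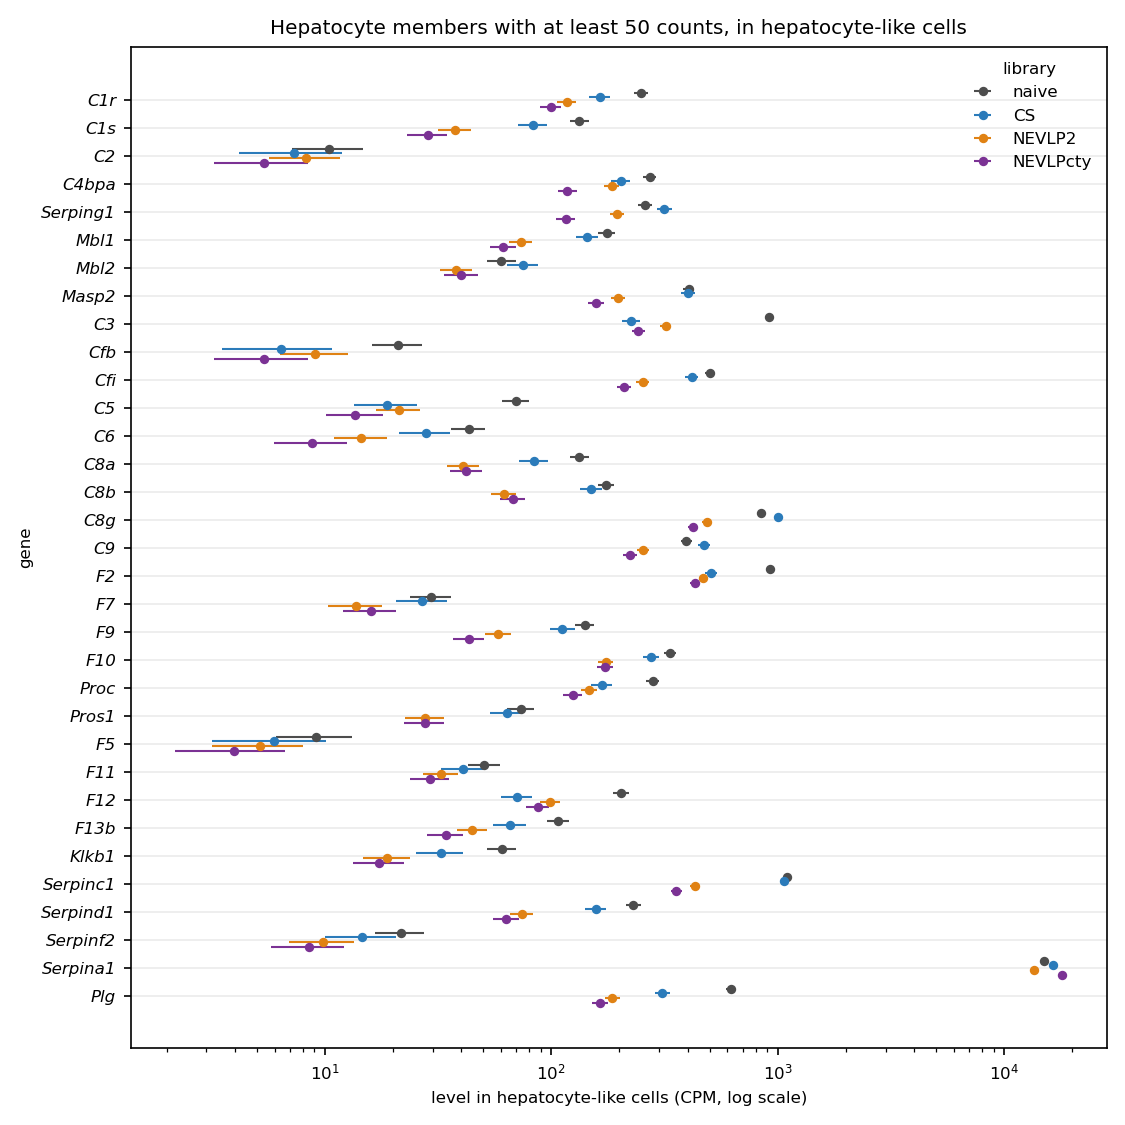
Level of the 33 hepatocyte members with at least 50 counts in hepatocyte-like cells, in CPM on a log axis, 1 point per library with exact 95% counting intervals. For 28 of the genes the naive point lies furthest to the right, and Serpina1 lies apart at the high end with all 4 points close together.

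C1q, the recognition unit of the classical pathway, was the leading product of the set in Kupffer-like cells. The 3 chain genes are adjacent, and promoters of C1qa at chr5:154419934-154420183 and C1qb at chr5:154407828-154408077, both on the minus strand of GRCr8, are shown for this reason. Capitals mark the searched motifs, TTCNNNGAA at -90 in C1qa and GAGGAA at -247 and -90 in C1qb, the latter on the opposite strand.
C1qa: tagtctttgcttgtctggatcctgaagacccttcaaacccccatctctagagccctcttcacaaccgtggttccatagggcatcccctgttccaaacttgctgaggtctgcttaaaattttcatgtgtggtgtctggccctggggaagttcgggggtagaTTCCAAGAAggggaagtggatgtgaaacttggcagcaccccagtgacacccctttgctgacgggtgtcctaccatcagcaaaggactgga
C1qb: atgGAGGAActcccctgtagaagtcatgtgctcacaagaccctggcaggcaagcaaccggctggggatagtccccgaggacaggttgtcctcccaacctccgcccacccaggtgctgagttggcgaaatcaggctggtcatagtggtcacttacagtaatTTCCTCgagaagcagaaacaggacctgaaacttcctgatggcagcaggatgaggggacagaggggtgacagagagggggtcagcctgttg

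In Kupffer-like cells C1qa had 16277, 18996, 11639 and 12145 CPM, C1qb had 12644, 15242, 10283 and 10277 CPM, and C1qc had 11511, 13907, 9053 and 9666 CPM. All 3 chains were highest in CS and lower in both perfused libraries, and no pair of libraries differed 2-fold. The Kupffer markers, summed over 8 of 8 detected genes, ran alongside at 20459, 20418, 12905 and 14109 CPM. After thinning each cell to 1000 UMIs, 100, 100, 97.3 and 98.1% of Kupffer-like cells had a C1qa UMI, against 1.35, 6.47, 8.21 and 2.97% of T-like cells, which should lack it. Before thinning the shares were 87.1, 100, 97.0 and 98.4% in Kupffer-like and 8.78, 37.2, 32.8 and 5.88% in T-like cells. The thinned shares rest on 34, 694, 339 and 160 Kupffer-like cells, with 59, 14, 32 and 25 shallower ones left out. Median depths before thinning were 715, 17086.5, 15641 and 3455 UMIs in Kupffer-like cells and 9301.5, 6097, 7158.5 and 7114.5 UMIs in T-like cells.

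The naive Kupffer-like cells fell into cluster 18, with 61 shallow cells, and cluster 11, with 32 cells that held 93.1% of the UMIs. CS cells lay in cluster 11 and perfused cells mostly in cluster 18, so contrasts between those pairs also set clusters apart. C1q was not limited to Kupffer-like cells. Monocyte- or macrophage-like cluster 21 held 6839 CPM of C1qa in naive and 10059 CPM in CS, and cluster 15 of the same kind held 5245 CPM in NEVLP2 and 6019 CPM in NEVLPcty.

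C1q transcripts were also counted in hepatocyte-like cells, where C1qa had 11.8, 160, 102 and 22.8 CPM. C1qb had 14.4, 153, 94.2 and 24.2 CPM there, C1qc had 11.4, 131, 78.2 and 17.6 CPM, and Cfd had 1.96, 23.8, 20.7 and 5.97 CPM. The CS level was 13.6-fold the naive level for C1qa, 10.6-fold for C1qb, 11.5-fold for C1qc and 12.1-fold for Cfd. The Kupffer markers in the same cells moved in the same order, at 22.2, 178, 120 and 49.8 CPM summed, with Cd163 at 0 in naive and 8 of 8 markers detected in the other libraries. Their part in the C1q and Cfd values was not tested. Thinned shares of hepatocyte-like cells with a C1qa UMI were 1.00, 17.0, 10.3 and 2.97%, so the share exceeded the T-like share most in CS.

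Cfd, the protease that activates factor B, had 1820, 2209, 1823 and 1755 CPM in Kupffer-like cells and varied little. C6, a pore protein gene counted here among the hepatocyte members, was far higher in Kupffer-like than in hepatocyte-like cells. It had 877, 959, 479 and 289 CPM in Kupffer-like cells against 43.2, 27.9, 14.5 and 8.82 CPM in hepatocyte-like cells. Thinned shares of Kupffer-like cells with a C6 UMI were 41.2, 55.8, 30.1 and 23.8%, and those of T-like cells 0, 0, 1.49 and 0%. Kupffer-like C6 was 2.002-fold lower in NEVLP2 than in CS (1.92 to 2.09), a contrast in which 34.8% of all genes were at least 2-fold lower. That difference lay at the limit, and it was at least 2-fold under 9 of 11 alternatives. C2, the classical convertase protease, had 65.7, 66.3, 46.1 and 38.1 CPM in Kupffer-like cells against 10.5, 7.31, 8.29 and 5.40 CPM in hepatocyte-like cells.

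Few other genes of the set were called in Kupffer-like cells, where most hepatocyte members had only low counts. Between CS and naive 2 of 23 measured were higher and 6 lower (8.7% and 6.54% of all genes), and between NEVLP2 and naive 2 of 20 were higher and 5 lower (14.8% and 26.6%). All of these calls rest on fewer than 20 naive counts. Between NEVLP2 and CS 2 of 30 were higher and 4 lower (10.2% and 34.8%), and between NEVLPcty and NEVLP2 1 of 23 was higher and 3 lower (12.1% and 7.24%). Besides C6, the genes lower in NEVLP2 than in CS were F8, with 15.2, 17.99, 6.99 and 9.52 CPM, Pros1, with 18.5, 28.3, 11.4 and 9.52 CPM, and F10, with 6.74, 7.72, 2.996 and 1.27 CPM. C3 had 32.0, 15.4, 17.8 and 10.2 CPM and C1r 8.42, 19.6, 17.0 and 8.88 CPM in these cells.

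Serping1, the inhibitor of C1r, C1s, kallikrein and factor XIIa, separated the 2 perfused libraries in Kupffer-like cells. It had 677, 607, 722 and 187 CPM, so naive, CS and NEVLP2 lay together and NEVLPcty far below. NEVLPcty was 3.86-fold lower than NEVLP2 (3.42 to 4.36), where 7.24% of all genes were at least 2-fold lower, and the same held under 11 of 11 alternatives, with log2 ratios from -2.15 to -1.31. Within cluster 18 alone the levels were 722 and 188 CPM. In cluster 15, the monocyte- or macrophage-like cells, Serping1 had 32.1 CPM in NEVLP2 and 12.01 CPM in NEVLPcty. Thinned shares of Kupffer-like cells with a Serping1 UMI were 41.2, 38.3, 38.6 and 16.9%, and those of T-like cells 0, 0.719, 0 and 0.990%. Hepatocyte-like cells had the same direction with a smaller ratio, at 196 and 116 CPM. Endothelial-led clusters had the opposite direction, at 258 CPM in NEVLP2 and 316 CPM in NEVLPcty, a ratio below 2-fold. Within cluster 8, which both libraries share, the values were 294 and 327 CPM, and the interval of their ratio (0.991 to 1.26) holds 1.

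**Figure D4:**
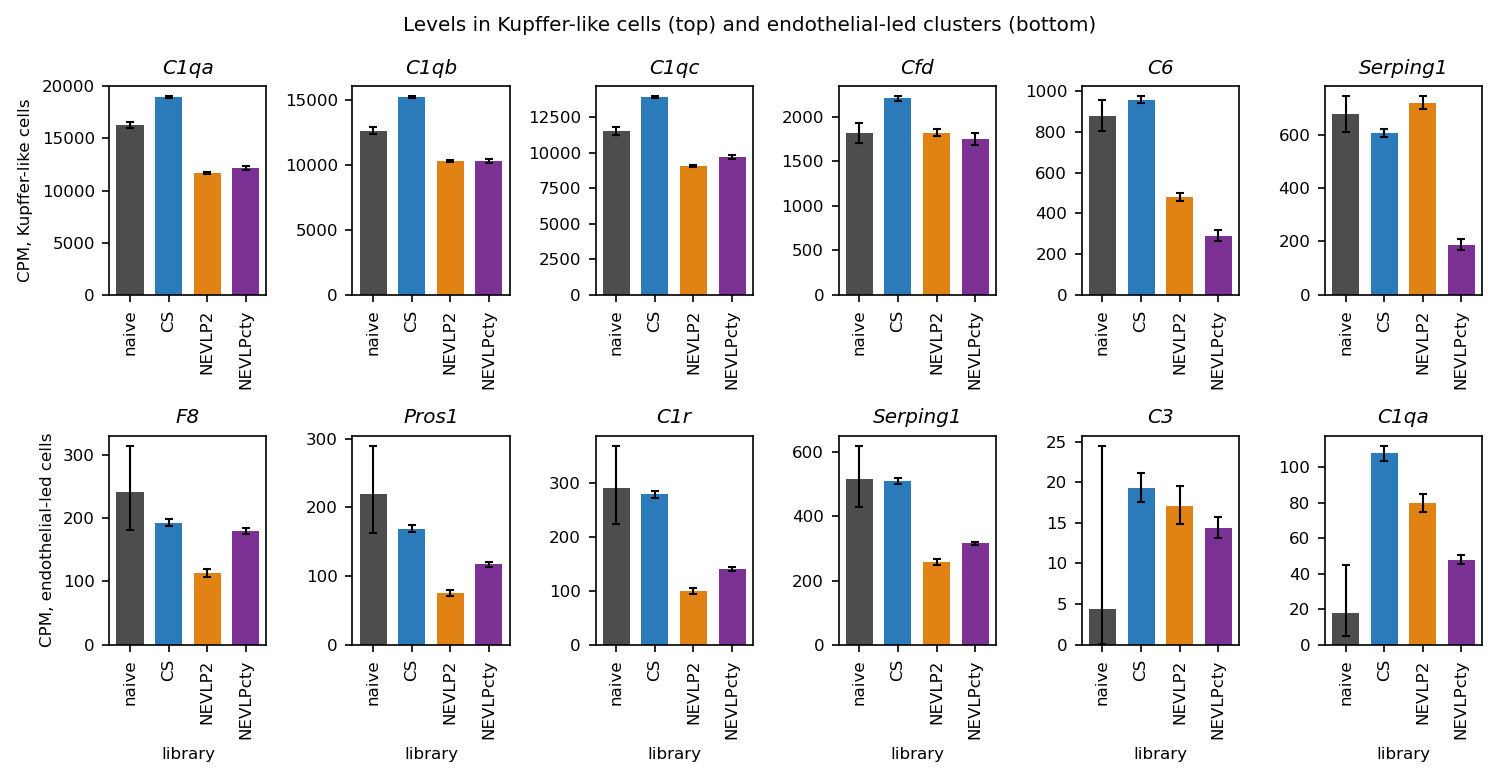
Level in CPM of 6 genes in Kupffer-like cells (top) and 6 in endothelial-led clusters (bottom), 1 bar per library with exact 95% counting intervals and axes from 0. Serping1 is low in NEVLPcty in the top row only, and F8, Pros1, C1r and Serping1 are lowest in NEVLP2 in the bottom row.

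In endothelial-led clusters 4 genes of the set stood out by level. F8, the cofactor of factor IXa, had 242, 193, 113 and 179 CPM, against 0.981, 9.59, 1.81 and 1.99 CPM in hepatocyte-like cells. Pros1 had 220, 169, 75.2 and 117 CPM, C1r had 290, 279, 98.5 and 140 CPM, and Serping1 had 518, 512, 258 and 316 CPM. All 4 were lowest in NEVLP2. The naive values rest on 69 cells, and in this set of cells the interval of each holds the CS value. The 30 named naive endothelial-like cells alone had F8 at 289 CPM (214 to 382), Pros1 at 271 CPM (199 to 362) and C1r at 371 CPM (285 to 475). Those intervals lie above the CS values of 192, 169 and 276 CPM in the named cells. The naive interval of Serping1 there (464 to 698) holds the CS value of 511 CPM. C1r was 2.83-fold lower in NEVLP2 than in CS (2.66 to 3.01) and Pros1 2.25-fold lower (2.09 to 2.41). In that contrast 45.1% of all genes were at least 2-fold lower, so these ratios do not set the 2 genes apart. Between NEVLPcty and NEVLP2 each of the 4 was higher, F8 by 1.58-fold (1.49 to 1.68), Pros1 by 1.55-fold, C1r by 1.42-fold and Serping1 by 1.23-fold, and none reached 2-fold, as 15.9% of all genes did. Of all 39 genes in this set of cells, 1 was at least 2-fold higher in NEVLPcty than in NEVLP2 and 5 were lower (5.96% of all genes). In NEVLP2 against CS 1 of 38 measured was higher and 8 were lower (10.9% and 45.1%). Most of these are hepatocyte genes at under 10 CPM here, apart from C1r, Pros1 and Cfd, which had 15.7 CPM in NEVLP2 and 7.54 CPM in NEVLPcty.

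The libraries again rest on different clusters. F8 had 192 CPM in CS cluster 1, 112 CPM in NEVLP2 cluster 5 and 185 CPM in NEVLPcty cluster 0, and within cluster 8, present in both perfused libraries, it had 109 and 173 CPM. In the named endothelial-like cells alone F8 had 289, 192, 113 and 171 CPM. Thinned shares of these cells with an F8 UMI were 35.7, 18.1, 11.8 and 15.2% (unthinned 56.7, 53.4, 32.8 and 49.3%), and those of T-like cells 0.676, 0.719, 0 and 0%.

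Cells named after stellate or fibroblast markers, of which 122 were in NEVLP2 and 194 in NEVLPcty, had C1r at 371 and 369 CPM. C1s stood at 62.4 and 51.1 CPM there, above the hepatocyte-like levels of 37.5 and 28.4 CPM in the same libraries. Masp1, a lectin pathway protease gene, had 8.91 and 16.3 CPM, from 6 and 14 counts. F8 had 105 and 150 CPM, Pros1 92.1 and 143 CPM and Serping1 294 and 329 CPM. The endothelial markers reached 11318 and 15029 CPM summed in these cells, with 11 of 11 detected. Their part in the F8, Pros1 and Serping1 values was not tested. In CS the stellate- or fibroblast-like class had only 11 cells. They held C1r at 2373 CPM (101 counts), C1s at 1222 CPM (52 counts) and Serping1 at 1151 CPM (49 counts). The leading CS classes with at least 50 cells had 276, 82.7 and 607 CPM.

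Other genes of the 2 systems were taken from lists outside the 39. In hepatocyte-like cells, 3 of the 13 measured complement genes were at least 2-fold higher in NEVLP2 than in naive and 3 lower, beside 38.6% and 7.51% of all genes. Fcna, a ficolin, had 4.58 CPM in naive and 28.5 CPM in NEVLP2 and Cfp, properdin, had 2.62 and 14.5 CPM. The Kupffer markers summed in the same cells stood at 22.2 and 120 CPM, and their part in these values was not tested. Of the 19 measured coagulation genes, 8 were higher and 5 lower in the same contrast. Tfpi2, a protease inhibitor, had 0.654 CPM in naive, from 2 counts, and 53.9 CPM in NEVLP2. The endothelial markers summed in the same cells were 14.4, 896, 150 and 475 CPM, with 4 of 11 at 0 in naive and 2 of 11 at 0 in NEVLP2, and their part in the Tfpi2 and Thbd values was not tested. Between NEVLPcty and NEVLP2, the fibrinogen genes Fga (296 to 122 CPM) and Fgg (1213 to 575 CPM) were among 5 of 21 coagulation genes that were lower. Thbd, thrombomodulin, went from 10.6 to 50.9 CPM and was among 3 that were higher (7.63% and 7.88% of all genes were lower and higher).

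In Kupffer-like cells, 3 of 19 measured complement genes were at least 2-fold higher in NEVLP2 than in CS and 5 lower, and 11 of 23 coagulation genes were higher and 7 lower (10.2% and 34.8% of all genes). F3, tissue factor, the trigger of coagulation, had 0.454 CPM in CS, 16.8 CPM in NEVLP2 and 2.54 CPM in NEVLPcty. C5ar1, the receptor for C5a, had 251 CPM in naive, 72.1 CPM in NEVLP2 and 181 CPM in NEVLPcty, and C3ar1, the receptor for C3a, had 35.4 CPM in naive and 6.19 CPM in NEVLP2. In endothelial-led clusters Tfpi2 had 1221, 51.5, 3783 and 759 CPM and Procr, the protein C receptor, had 321, 109, 1065 and 1077 CPM. For both of these genes CS was lowest and NEVLP2 was above naive.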

How the data were processed

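UMI counts were deposited by the authors as 1 matrix of whole numbers per library. Reads were processed with Cell Ranger 2.1.1 per the submitters' processing notes, and with 6.0.0 per the file headers. No genome build is named in the sources used here. Nothing before the counts was repeated. The members and all gene lists were chosen with earlier results of these data known.

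Features sharing a symbol were summed. Barcodes were kept from 200 genes and 500 UMIs upward if their mitochondrial share did not exceed 20%. Scrublet's automatic limit called 3, 326, 208 and 0 barcodes, so the highest scores were removed instead, at 0.8% of cells per 1000 barcodes (103, 968, 868 and 1093 barcodes). Each cell was scaled to 10000 counts before the log transform, 30 components of 2000 variable genes gave 15 neighbours, and Leiden clustering ran at resolution 1 with seed 1. Clusters were named after the leading marker list, with a mean log2 fold of at least 0.5 and at least 3 markers detected in over 10% of cells. A cluster stayed unnamed if another list had more markers among its 10 top genes than the leading list, as in cluster 0. Clusters with median UMIs under 1/3 of their own libraries' also needed a marker among their 10 top genes.

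Counts were summed per class and library. A gene entered a ratio with at least 10 counts in both libraries together, a floor of 3 counts replaced a 0, and a ratio of at least 2-fold was called. Levels have exact Poisson, ratios exact conditional binomial and shares exact binomial 95% limits, for counting error only. For shares, cells were thinned to 1000 UMIs. The scripts were tested on simulated data. All members are reported. In full come those with at least 50 counts that differed at least 2-fold between libraries or led outside hepatocyte-like cells, and up to 4 genes of each other list with the largest ratios. Promoters and gene order are RefSeq's on GRCr8, in which 29 of the 39 members had a promoter sequence. Of 14 alternative settings, 3 were chosen after seeing the data: cluster 4 only, no cluster 23, and scaling to other plasma proteins. Tools were Python 3.11.15, scanpy 1.11.5, anndata 0.12.19, leidenalg 0.10.2, numpy 2.4.6, scipy 1.17.1, pandas 2.3.3 and matplotlib 3.10.9.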

Additional observations from a re-analysis of the deposited data

Results flagged for a closer look

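Serping1 drew attention because its direction between the perfused libraries was opposite in 2 sets of cells. The log2 ratio of NEVLPcty to NEVLP2 was -1.95 in Kupffer-like cells and 0.29 in endothelial-led clusters, where the ratio within cluster 8 was 1.11 (0.991 to 1.26). The difference between these ratios was not tested, since each library is 1 sample.

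Unnamed cluster 40 held 26 CS cells that belong to no class of the comparisons above, and 2 genes of the set reached high levels there. C6 had 1434 CPM in these cells (1309 to 1567) and F5, the cofactor of factor Xa, had 673 CPM (588 to 766). Their leading genes included Prg4, Fn1, Itgb7 and Pf4. C1qa had 2336 CPM, Cfd 1578 CPM and C3 394 CPM in the same cells.

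Serpina1 had 21174 CPM in the NEVLPcty cells of unnamed cluster 3, a shallow cluster led by hepatocyte genes, above its 17984 CPM in the named hepatocyte-like cells of that library.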

How the results depend on the processing

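Alternative settings changed many counts of hepatocyte members at least 2-fold apart in hepatocyte-like cells. Of 112 such counts under 14 alternatives, 78 stayed within 1.5 times the reported count. All 32 counts of members highest in hepatocyte-like cells did so under the alternatives run for them. In CS against naive the 1 higher gene became 0 with a mitochondrial limit of 10%, cells thinned to 1000 UMIs, classes by transcripts, unnamed clusters added, centring on the median of all genes, at least 50 counts, resolution 2, cluster 4 only, or no cluster 23. The 5 lower genes became 9 with classes by transcripts, 10 with unnamed clusters added, 8 with centring on all genes, 8 at resolution 2, 2 in cluster 4 and 3 without cluster 23. In NEVLP2 against naive the 0 higher genes became 1 with doublets kept, 1 with scaling to other plasma proteins and 6 in cluster 4. The 20 lower genes became 32 with centring on all genes, 2 in cluster 4, 5 without cluster 23 and 0 with scaling to other plasma proteins. In NEVLP2 against CS the 0 higher genes became 6 in cluster 4 and 3 with scaling to other plasma proteins. The 8 lower genes became 4 with doublets kept, 0 with classes by transcripts, 0 with unnamed clusters added, 19 with centring on all genes, 3 at resolution 2, 1 in cluster 4 and 0 with scaling to other plasma proteins. In NEVLPcty against NEVLP2 the 0 lower genes became 2 with thinned cells, 1 at resolution 2 and 1 in cluster 4. The cause was not tested.

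Of 2362 values of 180 single ratios under the alternatives, 1642 moved by less than the counting interval, 701 by more, and 19 of the called ratios changed direction, all in cluster 4 only. The log2 ratio of NEVLP2 to naive was there 0.21 for C3, 0.32 for C5, 0.77 for C8b, 1.07 for C1r, 0.33 for C1s, 0.17 for F7, 0.27 for F9, 0.80 for F12, 1.09 for F13b, 0.93 for Serpinc1, 0.52 for Serpind1, 0.22 for Pros1, 0.34 for Plg and 0.44 for Klkb1. The log2 ratio of NEVLP2 to CS was 0.24 for C8b, 0.27 for C1s, 0.27 for Serpinc1, 0.089 for Serpind1 and 0.11 for Pros1.

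No paired analysis was possible because each condition has 1 library. Depth limits Masp1 and F8 in hepatocyte-like cells (23 and 38 counts in all) and every naive value in Kupffer-like and endothelial-led cells.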
